A study of Homo sapiens with 6 samples.

Results

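The genes described here are 33 genes of protein folding, stress sensing and protein disposal in the endoplasmic reticulum (ER), taken by symbol from the 26485 gene symbols of a count table. They comprised 6 sensors and regulators, 13 chaperones and co-factors, 4 disulphide isomerases, 8 genes of ER-associated degradation and 2 genes of the translocation channel, and all 33 were among the 12107 genes abundant enough to be tested. H9, an established human line of T lymphoma cells that the labels call cutaneous, was the source of the polyadenylated RNA. The control group was 3 libraries of H9 cells given the vehicle DMSO, and the PA4 group was 3 libraries of H9 cells given 1 µM PA4, the compound under test, both for 24 h. The labels name no genetic change, and the groups shared line, medium, serum and antibiotics. The design covered 1 cell line, 1 dose and 1 time, and nothing in the labels says that replicates were separate cultures, so the spread behind each p-value may be technical. The purpose stated with the series was to learn how the compound led to cell death.

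Libraries held 18282212 to 22875191 counts. Markers of cell types are given as CPM, here the counts scaled to the total of the library. The 11 T cell markers summed to 871 to 911 CPM in control and 859 to 889.9 with PA4, CD3E had 2099 to 2529 counts, and CD4 had at most 12 and CD2 at most 1. Because plasma cells carry much ER, their 5 markers were counted too, with sums of 42.6 to 49.1 CPM in control and 41.4 to 44.0 with PA4. Their defining receptor gene TNFRSF17 had 0 counts in every library, whereas MZB1 had 293 to 377, JCHAIN 340 to 377 and DERL3 28 to 47. In these 3 the groups overlapped, at log2 fold changes of -0.12, -0.015 and -0.12. SDC1, the plasma cell surface protein syndecan-1, had 9.81, 7.81 and 7.46 CPM in control and 6.91, 6.69 and 5.96 with PA4, without overlap, at an unadjusted p of 0.0111 and an edgeR adjusted p of 0.749. Epithelial markers summed to 133 to 137 CPM in control and 139.8 to 142 with PA4, also without overlap. Nearly all of this was EPCAM, at 124, 126 and 129 CPM in control and 134, 132 and 135 with PA4, a log2 fold change of 0.086 ± 0.038 (SE) with an unadjusted p of 0.0382 and an edgeR adjusted p of 0.933. The keratin genes KRT8 and KRT18 had at most 5 and 4 counts. CDH1, the other marker of that list, had 127 to 178 counts and went the other way. Its log2 fold change was -0.17 ± 0.11 (SE), and its groups overlapped. Sums of the other lists overlapped between groups, at 18.5 to 21.9 CPM in control and 19.5 to 21.4 with PA4 for B cells, 17.8 to 20.4 and 16.0 to 18.8 for natural killer cells, 1.09 to 1.79 and 0.820 to 1.57 for myeloid cells and 0.630 to 1.04 and 0.790 to 1.22 for fibroblasts. Of 21 markers abundant enough to test, 0 were called and 3 (SDC1, EPCAM and NKG7, a natural killer granule gene) had an unadjusted p under 0.05. In 2 of the 21 (EPCAM and CD28) all PA4 libraries lay above all control libraries, against 5.91% of all tested genes. In 3 (SDC1, CD7 and CCR4) all PA4 libraries lay below, against 5.31%. The part of these genes in the results below was not tested.

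Proteins that enter the ER through the SEC61 channel are folded there by chaperones, receive disulphide bonds from isomerases, and are sent back to the cytosol for breakdown if folding fails. When unfolded proteins build up, the sensors IRE1 (gene ERN1), PERK (EIF2AK3) and ATF6 start the unfolded protein response. IRE1 splices the XBP1 messenger, ATF6 is cut free as a transcription factor, PERK slows translation, and together they raise the genes of chaperones and of ER-associated degradation. Counts per gene cannot show the splicing of XBP1, the cleavage of ATF6 or the phosphorylation of PERK.

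Some members share a promoter feature that was not searched for in choosing them. They were chosen as known genes of this pathway, so its presence in them is no independent result. The ER stress element (ERSE, spelled CCAAT, any 9 bases, CCACG) and its short form (ERSE-II, spelled ATTGG, any 1 base, CCACG), both known as sites through which ATF6 and XBP1 act, were searched on both strands of RefSeq promoters of GRCh38.p14, from 250 bases before to 50 after each annotated start. Of 35093 promoters, 0.0769% held ERSE and 0.0541% held ERSE-II, which by gene were 25 and 19 of 27305. Promoters were in the table for 31 of the 33 members, and 7 of these 31 held ERSE (HSPA5, HSP90B1, CALR, CANX, PDIA6, XBP1 and CRELD2) while 3 held ERSE-II (HERPUD1, HYOU1 and SDF2L1). The element TGACGTGG, a site bound by XBP1, was in 0.729% of promoters, or 253 of 27305 genes. It was in 1 member, HYOU1, where it overlapped an ERSE-II. Stretches are shown for 8 of the 10 genes, with the elements in capitals, 5′ to 3′ on the gene's strand, because they are the known route from the sensors to these genes.
HSPA5, chr9:125241371-125241429, minus strand: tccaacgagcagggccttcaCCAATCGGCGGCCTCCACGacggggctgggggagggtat
HSP90B1, chr12:103930196-103930359, plus strand: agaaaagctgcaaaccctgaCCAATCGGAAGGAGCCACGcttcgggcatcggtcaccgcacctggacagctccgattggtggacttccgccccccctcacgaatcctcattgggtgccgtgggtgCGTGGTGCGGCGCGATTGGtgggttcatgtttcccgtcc
CALR, chr19:12938364-12938422, plus strand: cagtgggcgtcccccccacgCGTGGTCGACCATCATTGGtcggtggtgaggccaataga
XBP1, chr22:28800583-28800641, minus strand: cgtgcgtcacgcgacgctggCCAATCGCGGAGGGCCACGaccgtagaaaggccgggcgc
CRELD2, chr22:49918534-49918592, plus strand: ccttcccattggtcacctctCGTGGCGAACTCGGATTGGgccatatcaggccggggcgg
HERPUD1, chr16:56932005-56932055, plus strand: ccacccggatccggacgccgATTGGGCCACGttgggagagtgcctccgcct
HYOU1, chr11:119057254-119057410, minus strand: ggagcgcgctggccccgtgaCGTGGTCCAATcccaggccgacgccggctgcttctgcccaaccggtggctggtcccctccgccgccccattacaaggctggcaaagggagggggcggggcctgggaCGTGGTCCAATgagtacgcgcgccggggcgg
SDF2L1, chr22:21642094-21642144, plus strand: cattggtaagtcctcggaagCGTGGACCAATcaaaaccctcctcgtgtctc
HSP90B1 held 2 copies of ERSE, 1 in each orientation, and HYOU1 held 2 copies of ERSE-II in the same orientation. CALR, CRELD2, HYOU1 and SDF2L1 carried their elements in the reverse orientation, HSPA5, XBP1 and HERPUD1 in the orientation given. These are matches of letters, and binding was not measured.

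Levels between genes were compared as CPM, the counts scaled to library size, per kb of the deposited gene model. In control the major luminal chaperones stood highest, HSP90B1 (GRP94, the ER member of the HSP90 family) at 431 ± 16.2 CPM per kb (SD, n = 3) and CALR (calreticulin, a lectin that binds sugar chains on folding proteins) at 404 ± 7.38 CPM per kb (SD, n = 3). PPIB, a prolyl isomerase, followed at 242 CPM per kb, CANX, the membrane-bound lectin calnexin, at 213 and HSPA5 at 201 CPM per kb. Disulphide isomerases lay between 74.6 CPM per kb for PDIA4 and 134 for P4HB. Sensors were scarce, with ATF6 at 11.3 CPM per kb, EIF2AK3 at 7.11, ATF6B at 4.13 and ERN1 at 2.10. They were not alone in this, since DNAJC3 at 10.9, DERL2 at 10.2, SYVN1 at 8.57 and DNAJB9 at 6.63 lay in the same range. WFS1 was the lowest member at 0.997. The value of ATF6B rests on a deposited length of 10464 bases, whereas its GENCODE exons total 3629 bases. Its level per kb, and with it its place in the order of levels, may therefore be too low. The reason for the longer length was not tested. Of the 32 pairs of neighbours in this order, 23 did not overlap between their control libraries and 9 did, the latter including CANX with HSPA5 and P4HB with PDIA6.

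**Figure D1:**
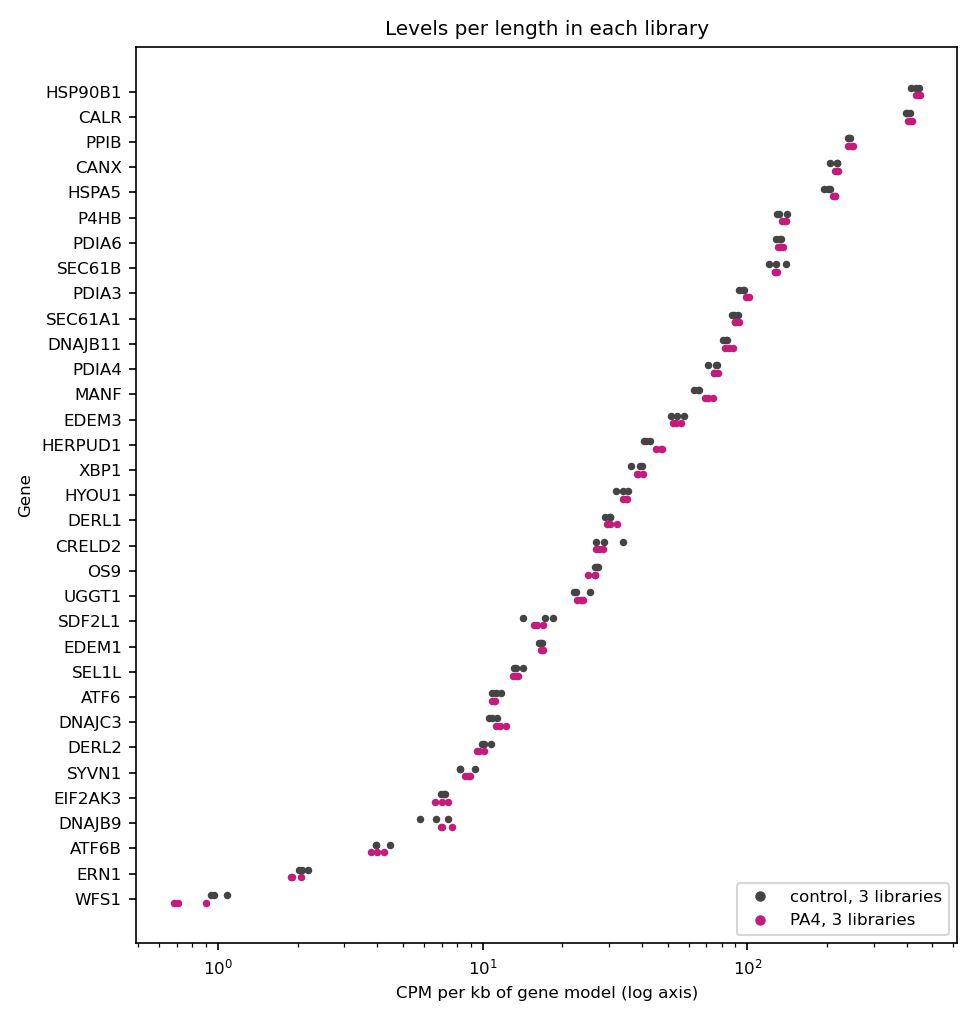
Level of each of the 33 genes in each library, in CPM per kb of gene model on a log axis, ordered by the control mean, with 3 control libraries in grey and 3 PA4 libraries in magenta. Levels run from 0.997 CPM per kb for WFS1 to 431 for HSP90B1 in control. The order of the genes spans far more than the distance between the groups. ATF6B may stand too low, since its deposited length exceeds its GENCODE exon total.

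With PA4 the members stood close to their control levels, within the bounds given below. Of the 33 members 0 were called at an adjusted p under 0.05 in edgeR's quasi-likelihood test over all 12107 genes, where 0.231% of genes were called, and DESeq2 and limma-voom, which called 0.289% and 0.223% of genes, also called 0 members. Before adjustment, HERPUD1, MANF and HSPA5 were the 3 members higher with p under 0.05, against 2.69% of all tested genes, and WFS1 the 1 member lower, against 2.6%. The 3 PA4 libraries lay above the 3 control libraries in 4 members (those 3 and PDIA3) against 5.91% of all tested genes, and below in 1 (WFS1) against 5.31%. The median log2 fold change was 0.021 over the members, 21 of them positive, beside -0.0040 over all tested genes, of which 47.6% were positive. In bulk RNA, fewer cells of a kind and less RNA per cell cannot be told apart, and CPM are shares of a library.

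Judged by the spread between these libraries, the data bound these differences tightly. If that spread is technical, the intervals do not cover differences between cultures. For 30 of 33 members the whole 95% interval lay between 1.2-fold lower and 1.2-fold higher, the exceptions being WFS1, ERN1 and DNAJB9, and for 32 it lay within 1.5-fold, the exception being WFS1. Of the 31 members that averaged at least 10 CPM, 30 were within 1.2-fold and 31 within 1.5-fold. The shares were 88.3% and 99.8% of the 8564 tested genes above the same floor. These genes were not matched to the members in abundance, on which the width of an interval depends. For scale, HMGCS1, which makes the HMG-CoA of sterol synthesis, differed 1.94-fold in the same fit.

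**Figure D2:**
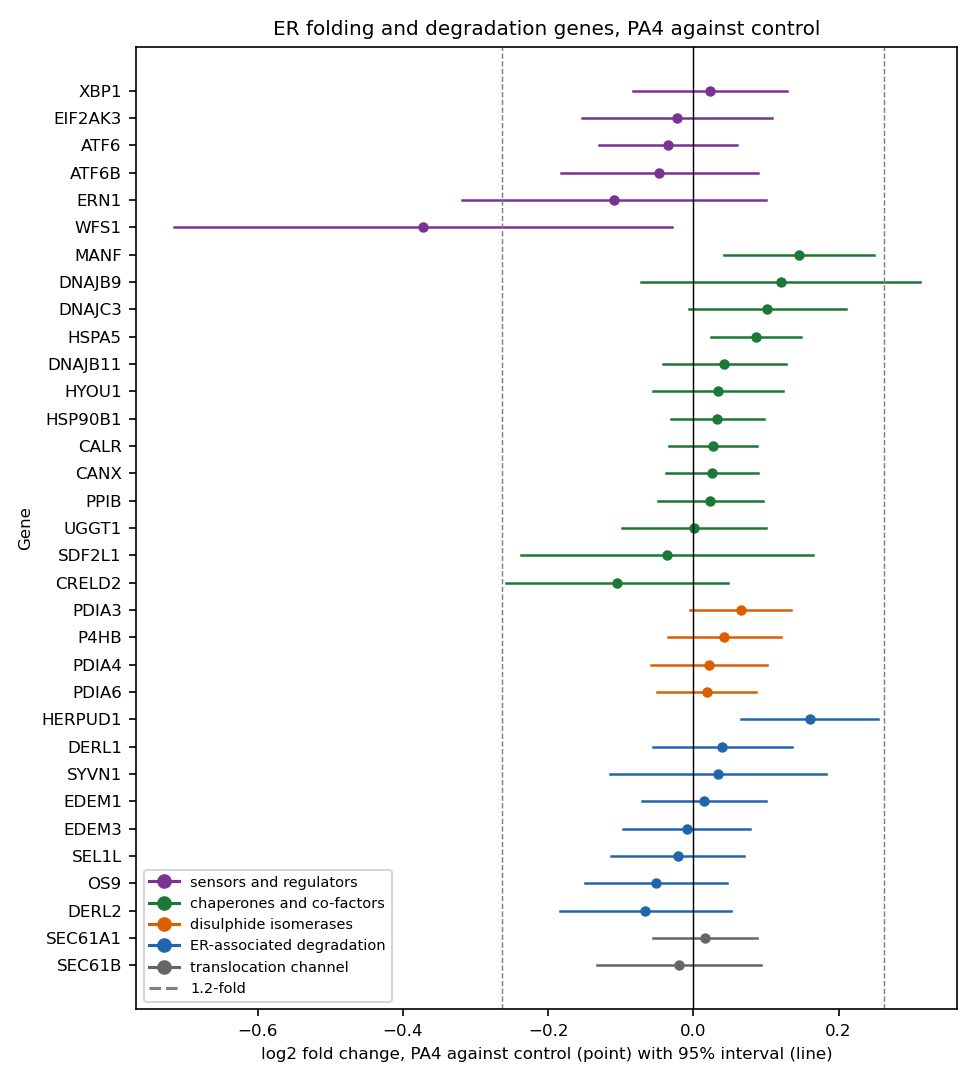
Log2 fold change of each gene, PA4 against control (point), with its 95% interval (line), coloured by role, and dashed lines at 1.2-fold in each direction. The intervals of WFS1, ERN1 and DNAJB9 cross a dashed line, and those of HERPUD1, MANF, HSPA5 and WFS1 do not reach 0.

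Among the sensors and regulators, 0 of 6 were called and 1 of 6 had a positive log2 fold change, with a median of -0.041. ERN1, the gene of IRE1, had 8.75, 8.11 and 8.35 CPM in control replicates 1 to 3 and 8.22, 7.54 and 7.62 CPM in PA4 replicates 1 to 3. The groups overlapped through PA4 replicate 1, at a log2 fold change of -0.11 ± 0.10 (SE). EIF2AK3, the gene of PERK, had 33.3, 32.4 and 33.5 CPM in control and 34.4, 30.7 and 32.7 CPM with PA4, so that the PA4 libraries spread to both sides of the control ones. ATF6 had 82.0, 88.2 and 84.9 CPM in control and 82.0, 82.9 and 84.1 CPM with PA4, inside the control range. Its relative ATF6B, which is cut in the same way, was at -0.047 ± 0.064 log2 (SE), with an interval of -0.18 to 0.088.

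XBP1, the transcription factor made from the messenger that IRE1 splices, and itself a holder of ERSE, had 71.6, 72.6 and 66.3 CPM in control and 69.9, 73.7 and 70.1 CPM with PA4. Control replicate 3 was the lowest library and PA4 replicate 2 the highest, and the log2 fold change was 0.023 with an interval of -0.083 to 0.13. WFS1, the ER membrane protein wolframin, which restrains ATF6 and is mutated in Wolfram syndrome, had 66, 76 and 67 counts in control and 50, 75 and 47 with PA4, or 3.42, 3.95 and 3.52 CPM against 2.48, 3.29 and 2.58 CPM. All PA4 libraries were below all control libraries, PA4 replicate 2 nearest to them. The log2 fold change was -0.37 ± 0.16 (SE), with an interval of -0.72 to -0.030, an unadjusted p of 0.0348 and an edgeR adjusted p of 0.920, the widest error of the set at the smallest counts. Its unadjusted p was 0.117 without control replicate 2, 0.126 without PA4 replicate 1, 0.0959 without PA4 replicate 3 and 0.103 in DESeq2.

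Chaperones and co-factors were positive in 11 of 13 genes, at a median of 0.033 log2, and 0 were called. HSPA5, the gene of BiP, the HSP70 of the ER that also holds the sensors inactive, lies at chr9:125234853-125241343 of GRCh38. It had 774, 817 and 798 CPM in control and 850.3, 835.5 and 850.5 CPM with PA4. Each PA4 library stood above each control library, a 1.06-fold difference, 0.086 ± 0.029 log2 (SE), with an interval of 0.025 to 0.15, an unadjusted p of 0.00902 and an edgeR adjusted p of 0.700. MANF, a small ER protein that binds BiP and can be secreted, at chr3:51385291-51389397, had 62.7, 63.5 and 60.7 CPM in control and 68.5, 71.6 and 66.5 CPM with PA4. These groups did not overlap either, at 0.15 ± 0.05 log2 (SE), or 1.11-fold, with an unadjusted p of 0.00853 and an edgeR adjusted p of 0.679. Its unadjusted p was 0.0612 without PA4 replicate 2, its highest library.

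The other abundant chaperones stood closer to their control levels. HSP90B1 had 1186, 1241 and 1278 CPM in control and 1266, 1244 and 1281 CPM with PA4, and CALR had 788, 761 and 769 CPM in control and 787, 802 and 775 CPM with PA4. In both genes the groups overlapped, at 0.033 ± 0.030 and 0.028 ± 0.029 log2 (SE). CANX, at 0.025 ± 0.030 log2 (SE), and PPIB, at 0.024 ± 0.034, were as near to 0, and UGGT1, the glucosyltransferase that returns misfolded glycoproteins to the lectins, was at 0.00094 ± 0.047.

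The DNAJ co-chaperones of BiP were all on the positive side without a call. DNAJB9 (ERdj4, a target of spliced XBP1) had 14.7, 16.9 and 18.8 CPM in control and 19.4, 17.8 and 17.7 CPM with PA4, and the spread of the control libraries, a coefficient of variation of 12.3%, covered 2 of the PA4 values. DNAJC3 (a co-chaperone also known as an inhibitor of PERK) was at 0.10 ± 0.05 log2 (SE) with an unadjusted p of 0.0633, and DNAJB11 at 0.043 ± 0.040. HYOU1, a large HSP70 relative that exchanges nucleotide on BiP, was at 0.034 ± 0.042.

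SDF2L1 and CRELD2, both induced by ER stress and both holding an element, were the chaperone-group members with negative values. SDF2L1 had 16.1, 14.97 and 12.4 CPM in control and 14.7, 14.0 and 13.7 CPM with PA4, so that all PA4 libraries lay inside the control range. CRELD2 was at -0.11 ± 0.07 log2 (SE), and its control libraries ranged from 46.1 to 58.6 CPM. Both values moved with the control library left out. Without control replicate 1, the highest for both, they were 0.045 for SDF2L1 and 0.00018 for CRELD2, and without control replicate 3, the lowest for both, they were -0.13 and -0.18, the latter with an unadjusted p of 0.0116 and an edgeR adjusted p of 0.372.

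Values for the 4 disulphide isomerases were all above 0, at a median of 0.032 log2, and 0 were called. PDIA3 (ERp57, which works with the lectins), at chr15:43746438-43773278, had 285, 297 and 294 CPM in control and 305, 302 and 310 CPM with PA4. The PA4 libraries all lay above the control ones, at 0.065 ± 0.033 log2 (SE), with an unadjusted p of 0.0645. P4HB (PDI itself, also a subunit of collagen prolyl hydroxylase) had 363, 340.4 and 332 CPM in control and 359, 360.4 and 347 CPM with PA4, and PDIA4 had 227, 224 and 210 CPM in control and 228, 222 and 221 CPM with PA4. In both genes the highest or next highest library was control replicate 1, and the log2 fold changes were 0.043 ± 0.037 and 0.021 ± 0.038 (SE). PDIA6, an isomerase that also binds IRE1, was at 0.018 ± 0.032.

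**Figure D3:**
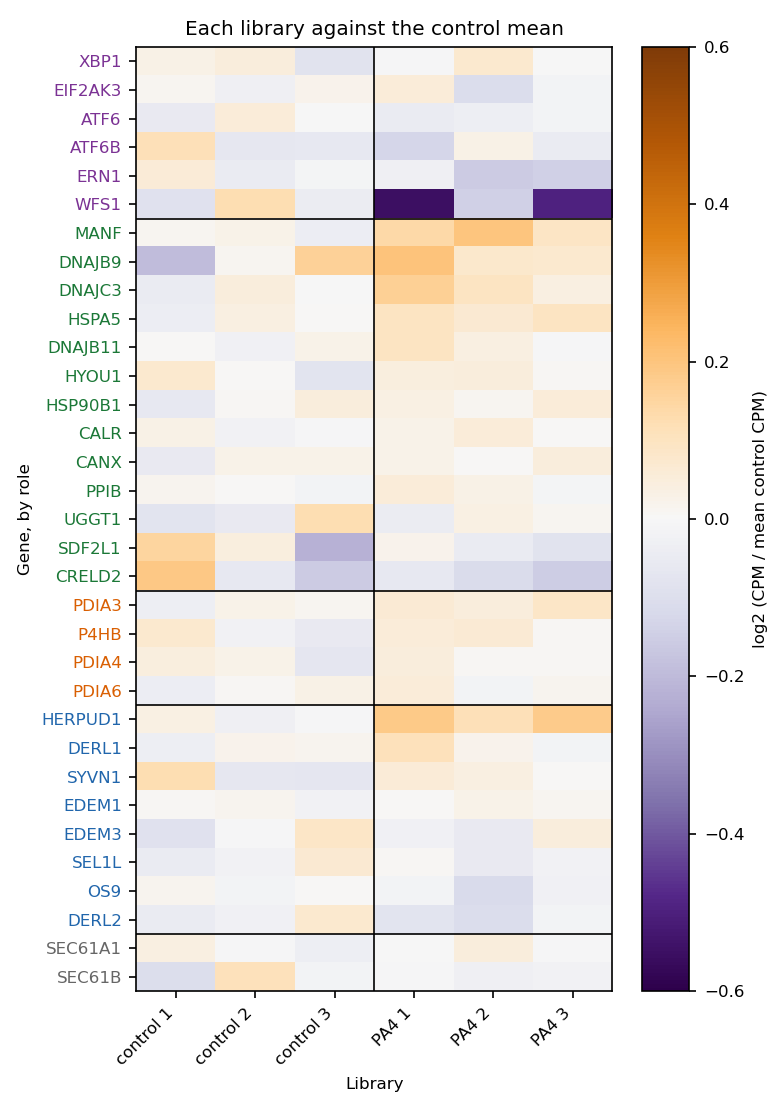
Log2 ratio of each library's CPM to the mean control CPM, for 33 genes ordered by role (coloured names, black lines between roles) and 6 libraries (control left, PA4 right). HERPUD1, MANF and HSPA5 are on the positive side in all 3 PA4 libraries, WFS1 on the negative side, and SDF2L1, CRELD2 and DNAJB9 differ as much between control replicates 1 and 3.

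Genes of ER-associated degradation divided evenly, 4 positive and 4 negative, with a median of 0.0027 and 0 called. HERPUD1, a membrane protein that gathers the degradation complex and is among the genes most readily induced by ER stress, had the smallest p of the set. The gene lies at chr16:56932142-56944864 and has the ERSE-II shown above. It had 82.1, 78.5 and 79.6 CPM in control and 91.1, 86.7 and 90.7 CPM with PA4. No library overlapped with the other group, and the means of 80.1 ± 1.83 and 89.5 ± 2.40 CPM (SD, n = 3 each) differed 1.12-fold, by 0.16 ± 0.04 log2 (SE), with an interval of 0.066 to 0.25. The unadjusted p was 0.00229 and the edgeR adjusted p 0.345, which ranged from 0.0719 without control replicate 1 to 0.999 without PA4 replicate 1.

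The ubiquitin ligase that HERPUD1 serves and its partner showed no such separation. SYVN1 (HRD1, the ligase) had 28.5, 25.0 and 24.9 CPM in control and 27.2, 26.9 and 26.2 CPM with PA4, and SEL1L, its partner and scaffold, had 112, 114 and 122 CPM in control and 117, 112 and 115 CPM with PA4. All PA4 libraries of SYVN1 lay within the control range, as did those of SEL1L except PA4 replicate 2, just below it, at 0.034 ± 0.070 and -0.021 ± 0.043 log2 (SE). The mannosidase-like genes EDEM1 and EDEM3, which mark glycoproteins for disposal, were at 0.015 ± 0.040 and -0.0093 ± 0.041, and OS9, the lectin that reads the mark, at -0.052 ± 0.046. The derlins, membrane proteins of the exit channel, had opposite signs, DERL1 at 0.040 ± 0.045 and DERL2 at -0.066 ± 0.056. SEC61A1 and SEC61B, subunits of the channel by which new proteins enter, were at 0.016 ± 0.034 and -0.019 ± 0.053.

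**Figure D4:**
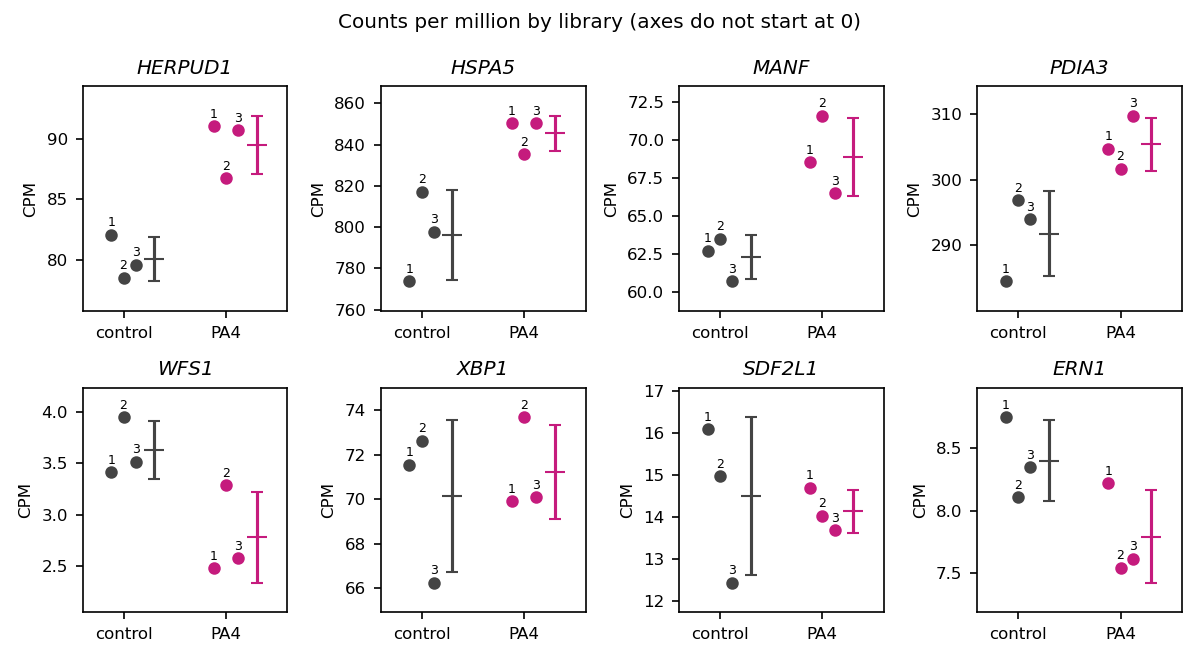
CPM of 8 genes in each library (points, numbered by replicate), with the mean and SD of each group (n = 3) beside them; the axes do not start at 0. HERPUD1, HSPA5, MANF and PDIA3 have all PA4 points above the control points and WFS1 all below, while XBP1, SDF2L1 and ERN1 overlap.

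Summed over the 33 genes, the libraries held 7629, 7767 and 7804 CPM in control and 7939, 7857 and 7910.1 CPM with PA4, so that the groups did not overlap and the PA4 mean was 1.02 times the control mean. HSP90B1, CANX, HSPA5 and CALR made up 49.3% to 50.5% of the sum. Without HSPA5, HERPUD1 and MANF the groups overlapped, at 6711, 6808 and 6866 CPM in control and 6929, 6863 and 6902 with PA4. By role, chaperones had 4868 ± 83.3 CPM in control and 5000.2 ± 21.3 with PA4, isomerases 1315 ± 9.97 and 1348 ± 16.5, sensors and regulators 243 ± 4.79 and 239 ± 2.93, and degradation genes 908 ± 25.7 and 913 ± 17.9 (SD, n = 3 each). The sum follows its most abundant genes, and it was not tested because its members were chosen with results known.

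The 10 members with an ERSE or ERSE-II had a median log2 fold change of 0.027, 8 of them positive and 2 at p under 0.05 before adjustment. The 21 with a promoter and no match to either element had a median of 0.00094, 11 of them positive and 2 at an unadjusted p under 0.05. Only exact spellings near the annotated starts were sought, so a member without a match may still have such an element. No member of either kind was called, and the values of the element holders ran from -0.11 for CRELD2 to 0.16 for HERPUD1. Outside the members, 19 tested genes had ERSE or ERSE-II in a promoter, of which 0 were called and 1 had an unadjusted p under 0.05 in edgeR.

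Other genes of the pathway, from 4 lists, gave 0 called of 128 tested by any of the 3 tools, while edgeR had 4 higher and 1 lower with p under 0.05 before adjustment. These are 3.12% and 0.781% of the 128, beside 2.69% and 2.6% of all tested genes, so the higher count is near the background. The 30 other oxidoreductases and folding factors had a median of 0.0017 and 0 at that p, and the 37 other degradation genes a median of -0.0034 with UBXN8, an ER membrane tether for the ATPase VCP, at 0.16 ± 0.07 log2 (SE). The 34 genes of translocation, signal cleavage and sugar transfer had a median of -0.0029 with SEC61A2, another form of the channel subunit, at -0.33 ± 0.12 log2 (SE), from 6.90 to 5.47 mean CPM. Among 27 genes that process the sensors or act downstream of them, with a median of -0.00090, 3 had positive values at that p. These were TRIB3, a pseudokinase induced by ATF4 and CHOP, at 0.23 ± 0.07 log2 (SE), PPP1R15A, the phosphatase subunit that reverses the block to translation by PERK, at 0.24 ± 0.10, and NFE2L1, an ER-anchored factor of proteasome genes, at 0.11 ± 0.05. TRIB3 had 75.3, 66.3 and 59.95 CPM in control and 79.3, 82.5 and 74.9 CPM with PA4, with control replicate 1 just above the lowest PA4 library. Its edgeR adjusted p was 0.425. It was 0.00301 without control replicate 1 and 0.00380 with no low-count filter, but 0.364 without control replicate 3, 0.443 without PA4 replicate 3, 0.998 without control replicate 2, 0.999 without PA4 replicate 1 and above that without PA4 replicate 2. The adjusted p of TRIB3 was 0.291 in DESeq2, 0.359 in limma-voom and 0.0181 in edgeR with a replicate block. With the GC-corrected offsets described below, chosen after the data were seen, edgeR gave 0.000137, and at most 0.00476 with 1 library left out as well.

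Base composition moved with the spread between libraries in both groups. Each library's deviations from its group mean were set against transcript GC content over 8506 genes. The Spearman rho was 0.777, -0.185 and -0.709 in control replicates 1 to 3, and 0.201, 0.384 and -0.497 in PA4 replicates 1 to 3. Between control replicates 1 and 3, members of higher transcript GC content were relatively more abundant in replicate 1, with a Spearman rho of 0.774 across 33 genes that share the same libraries and are no replicates. The rho was 0.781 across 8506 tested genes that averaged at least 10 CPM. SDF2L1, at 66.2% GC, and CRELD2, at 60.9%, had ratios of 0.37 and 0.35, and DNAJB9, at 43.6%, had -0.36. HERPUD1, HSPA5 and MANF, at 48.7%, 46.0% and 50.4% GC, lay near the middle with ratios of 0.044, -0.044 and 0.047. The fold changes with PA4 had a rho of -0.224 with GC content over the members. When each library's trend with GC content was removed by offsets, an alternative chosen after the data were seen, HERPUD1 was called at 0.15 log2 with an edgeR adjusted p of 0.0214 and HSPA5 at 0.082 log2 with an edgeR adjusted p of 0.0390, so that 2 of 33 members were called beside 1.08% of 11828 genes. MANF had an edgeR adjusted p of 0.0930 there. CRELD2, at -0.094 log2, joined WFS1 as a member lower at an unadjusted p under 0.05, with 0.0467 before adjustment and an edgeR adjusted p of 0.456. With these offsets and 1 library left out, HERPUD1 was called without control replicate 1 or PA4 replicate 2 and HSPA5 without control replicate 2, and otherwise neither was, with adjusted p-values of up to 0.150 and 0.189.

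**Figure D5:**
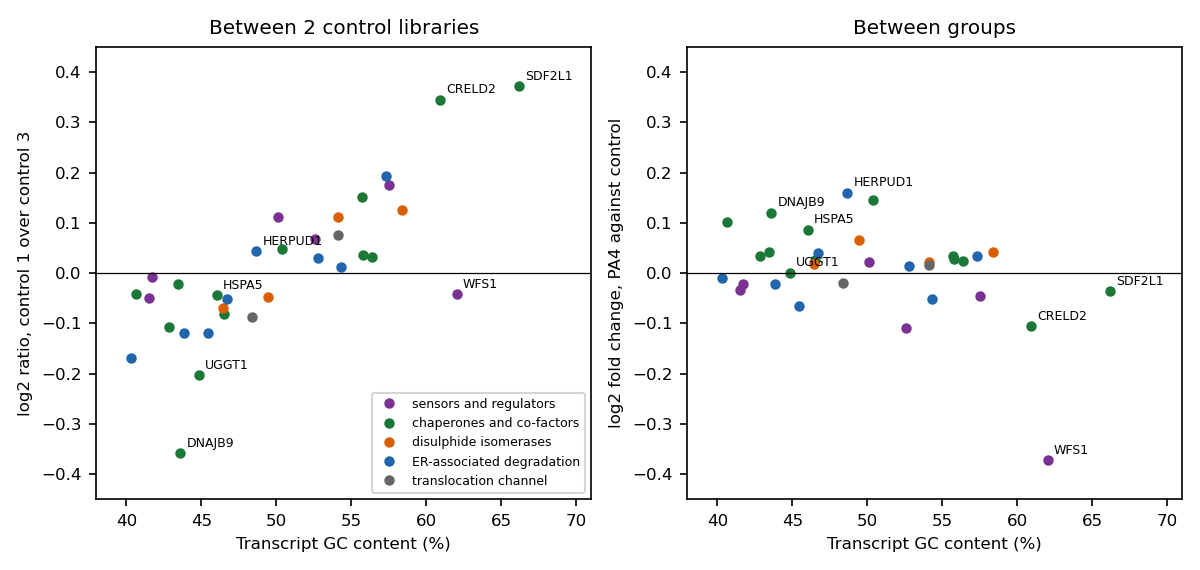
Transcript GC content (x axis, %) of the 33 genes against their log2 ratio between control replicates 1 and 3 (left) and the log2 fold change of PA4 against control (right), coloured by role. Left, SDF2L1 at 0.37 and DNAJB9 at -0.36 stand at the ends of a rising trend; right, HERPUD1 and HSPA5 lie above 0 at intermediate GC content.

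Some counts could include reads of neighbours, since the strand setting of the counting is not given in the sources used here. HERPUD1, HSPA5, MANF, WFS1, XBP1, ERN1, ATF6 and SDF2L1 shared 0 exon bases with another gene of GENCODE release 29. For some members the neighbour was about as abundant or more so. DNAJB9, with a mean of 348 counts per library, shared 6.45% of its exon bases with THAP5 on the opposite strand, which had 1611. SYVN1, with 525 mean counts, shared 7.24% with FAU on its own strand, which had 6236, and 6.48% with MRPL49 on the opposite strand, which had 1952. DERL2, with 877 mean counts, shared 4.71% with MIS12 at 1275. SEC61A1, with 6508, shared 7.32% with RUVBL1 at 6130.3, and less abundant neighbours were ALG12, at 242 beside 980.5 for CRELD2 (3.25% shared), TBC1D31, at 510.5 beside 2002 for DERL1 (5.59%), and TBCCD1, at 664 beside 2812.5 for DNAJB11 (6.65%). The values of these 7 members may be less certain for that reason. The deposited lengths differ from the GENCODE exon totals, as with 3051 against 5496 bases for SYVN1 and 1691 against 5731 for DNAJB11. The counted gene models may therefore not hold the shared bases. Larger overlaps were with scarce genes, 27.2% of PPIB with SNX22 at 32.8 mean counts, 25.2% of PDIA6 with ATP6V1C2 at 1.67 and 14.8% of PDIA3 with ELL3 at 7.50. Processed copies were small beside their parents, with 49.2 mean counts for HSP90B2P and 50.3 for PDIA3P1.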

How the data were processed

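Raw counts for each gene symbol were deposited for 6 libraries, 1 column per library, with a gene model length in bases as another column that the authors' counting tool wrote. Trimmomatic 0.39, fastp 0.23.2, STAR 2.7.9a and featureCounts of Subread 1.6.4 were used on hg38, per the submitters' processing notes; annotation and strand setting are not given in the sources used. Groups were taken from the treatment label. Counts were fitted in R 4.3.3 with edgeR 4.0.16 (filterByExpr, TMM factors, glmQLFit and glmQLFTest, two-sided, all 6 libraries, no covariate), with Benjamini-Hochberg adjustment over 12107 genes and calls at an adjusted p under 0.05. The common biological coefficient of variation was 3.92%. CPM used TMM-scaled library sizes, and intervals came from the F statistic and its degrees of freedom. DESeq2 1.42.0, limma-voom (limma 3.58.1), RLE factors, no low-count filter, a replicate block and leaving out each library were alternatives; GC-corrected offsets were added after the data were seen. The offsets removed a spline trend of each library with mean transcript GC content from GENCODE release 29. The procedure was also run on simulated data, with results not given here. Those data had no trend of a library with GC content, so that run cannot show how calls behave under such a trend.

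The members and lists were chosen with earlier results of these data known, so no test was made over a list. Of 133 list entries, 126 matched by symbol, 6 by an older name and 1 did not match. Values in every library are given for members with an unadjusted p under 0.05 or no overlap between groups and for 15 members set by name; outside the members, up to 4 genes per list at an unadjusted p under 0.05 are named. Promoter sequences and gene positions are from RefSeq, GRCh38.p14.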

Additional observations from a re-analysis of the deposited data

How the results depend on the processing

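Of 594 member values over 18 alternative settings, 554 kept their direction and their side of the threshold, 35 changed sign and 5 became called; the cause of these changes was not tested. The calls were HERPUD1 and HSPA5 with GC-corrected offsets, at adjusted p-values of 0.0214 and 0.0390, and with those offsets and 1 library left out. HERPUD1 and HSPA5 kept an unadjusted p under 0.05 in each of the 18 settings, at most 0.0160 and 0.0436. Against 0 members called, GC-corrected offsets gave 2, or 0 to 1 with 1 library left out as well, and each other setting 0. Members higher at an unadjusted p under 0.05 were 3, and in edgeR with the replicate block PDIA3 joined them at 0.0491. With GC-corrected offsets there were 5, or 4 to 7 with 1 library left out as well, and leaving out 1 library gave 2 to 5. Members lower at that p were 1, in DESeq2 0 and with GC-corrected offsets 2, or 0 to 1 with 1 library left out as well, and leaving out 1 library gave 0 to 2. Genes called over the whole table were 28, with no low-count filter 62, with the replicate block 59 and with GC-corrected offsets 128, or 135, 91 and 156 without control replicates 1 to 3 and 88, 64 and 72 without PA4 replicates 1 to 3 as well; leaving out 1 library gave 17 to 74. Other pathway genes called were 0, with no low-count filter 1, with the replicate block 1 (TRIB3 in both, at adjusted p-values of 0.00380 and 0.0181) and with GC-corrected offsets 2 (TRIB3 at 0.000137 and NFE2L1 at 0.0465), or 1 to 3 with 1 library left out as well; leaving out 1 library gave 0 to 2. The 1.2-fold bound held for 26 to 31 members, fewest without PA4 replicate 1, in the settings that give intervals.

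Sign changes fell on 16 members, among them CRELD2, which was at -0.11 with all libraries and positive only without control replicate 1. With 1 library left out, log2 fold changes ran from -0.086 to 0.014 for ATF6B, -0.13 to 0.045 for SDF2L1, -0.18 to 0.00018 for CRELD2, -0.0017 to 0.041 for CANX, -0.037 to 0.068 for UGGT1, -0.0013 to 0.039 for PDIA6, -0.068 to 0.039 for SEC61B, -0.016 to 0.049 for XBP1, -0.0037 to 0.071 for HYOU1, -0.012 to 0.043 for PDIA4, -0.050 to 0.035 for EDEM3, -0.046 to 0.015 for SEL1L, -0.00036 to 0.037 for SEC61A1 and -0.061 to 0.025 for EIF2AK3. With GC-corrected offsets UGGT1 was at -3.5e-05. With these offsets and 1 library left out, ranges that crossed 0 were -0.074 to 0.00053 for ATF6B, -0.039 to 0.029 for SDF2L1 (0.019 without PA4 replicate 2), -0.030 to 0.049 for UGGT1 (-0.017 without control replicate 1 and -0.023 without PA4 replicate 2), -0.0057 to 0.027 for PDIA6, -0.067 to 0.032 for SEC61B, -0.021 to 0.045 for XBP1 (-0.0093 without PA4 replicate 2), -0.020 to 0.0071 for EDEM3 (0.0070 without PA4 replicate 2), -0.067 to 0.016 for EIF2AK3 (0.013 without control replicate 1), -0.0032 to 0.043 for PPIB and -0.0013 to 0.067 for DERL1.

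The replicate numbers were not taken to pair the libraries, since the labels state no pairing. Correlations of the deviations of libraries with the same number were 0.16, -0.088 and 0.42. Libraries of different number were not compared, so these values cannot decide whether the numbers pair them. The replicate block called 0 members and gave HERPUD1 an adjusted p of 0.116. The counts of WFS1, at most 76 per library, limit its precision.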
